A study of Drosophila melanogaster with 16 samples.

Results

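The cytochrome P450 genes of the fly head are described here, apart from Cyp28d1 and Cyp28d2. A gene was taken when its symbol was Cyp followed by a family number, a subfamily letter and a gene number, which gave 78 of the 17558 genes counted. They fall into 20 families and 43 subfamilies. The rule leaves out 3 pseudogenes, the Cyp12d1 pair Cyp12d1-p and Cyp12d1-d, whose symbols carry a suffix, and Cyp1, which is a cyclophilin and no P450. P450 genes known by other names, such as the Halloween genes of ecdysone synthesis, are treated below as neighbouring pathway genes. All flies were male, 5 to 8 days past eclosion, and raised at 25 °C on standard food. They expressed a short repeat of 5 units (5R, the control) or a long repeat of 160 units (160R), from a transgene on chromosome 2 or on chromosome 3. The repeat is the GGGGCC unit whose expansion in C9ORF72 causes frontotemporal dementia and amyotrophic lateral sclerosis. This gives 4 groups of 4 libraries: Chrom2-5R and Chrom2-160R, which make up the chromosome 2 line, and Chrom3-5R with Chrom3-160R, the chromosome 3 line. The labels do not name the driver and promoter of the transgene, the genetic background of each stock or the crosses behind each library. Differences between stocks other than the repeat length therefore cannot be told apart from it, and p-values measure only the spread between libraries, which may be technical.

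Cytochromes P450 are heme enzymes that insert an oxygen atom into small lipophilic molecules. Most insect P450s sit in the endoplasmic reticulum and take electrons from the reductase Cpr, while a mitochondrial group takes them from a ferredoxin. In flies they make and break down the moulting hormone ecdysone, make the hydrocarbons that waterproof the cuticle, shape pheromone and odour responses, and detoxify plant compounds and insecticides. Large families such as CYP6 and CYP4 arose by local gene duplication, and for many of their members no substrate is known. In adult heads P450s are known from the fat body under the cuticle, from glia and neurons, and from the antennae. Insect P450 families are grouped into clans by descent. The CYP3 clan held 35 of the 78 genes, the CYP4 clan 32, the mitochondrial clan 7 and the CYP2 clan 4.

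Library totals ran from 11452337 to 30496479 counts in the chromosome 2 groups and from 42854987 to 53615117 in the chromosome 3 groups, so depth cannot be told apart from the insertion site. The P450 genes took between 0.305% and 0.438% of the counts of a library. Levels are given in CPM, counts scaled to a common library size with TMM factors. Neuronal elav was at 293 to 382 CPM, glial repo at 88.6 to 117 CPM and the photoreceptor opsin ninaE at 3122 to 11539 CPM, all markers of head tissue. The odorant co-receptor Orco, which marks antennal neurons, was at 1.12 to 2.43 CPM. Chrom2-160R replicate 1 stood apart, with a summed level of 133 CPM for male reproductive tract genes, against 3.68 to 11.1 CPM in the other 15. That library also had the highest cuticle gene sum, 300.6 CPM, followed by Chrom3-160R replicate 4 with 226 CPM.

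All 78 genes had at least 1 count in every library. Levels of different genes are compared per kb of gene span, which counts introns as well, so that genes with long introns rank lower. On this scale Cyp313a1 was highest, at 267 CPM per kb averaged over 16 libraries, but it lies wholly within Pde6 on the other strand, and Pde6 had 1.3 to 1.4 times its counts in every library. Cyp4d21 followed at 149.7 CPM per kb, then Cyp6d5, which lies within rdx on the other strand, at 99.9, Cyp6g1 at 83.4 and Cyp6w1 at 63.3. The function of Cyp313a1 is not known. Cyp4d21, also called sxe1, is male-enriched and known from the fat body of the male head. A total of 2 genes exceeded 100 CPM per kb, 31 lay between 10 and 100, 35 between 1 and 10, and 10 were at or under 1, with a median of 8.28. The 10 genes with the most counts held 57.2% of the summed P450 level. The low-count filter kept 75 genes and left out Cyp313a2, Cyp313a3 and Cyp313a5, which form a run on 3R and had mean levels of 0.183, 0.201 and 0.167 CPM.

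The summed level of the 78 genes was 3730, 3771, 3827 and 3594 CPM in Chrom2-5R and 3353, 3144, 3077 and 3157 CPM in Chrom2-160R. In the chromosome 3 groups it was 3980, 4309, 4047 and 4166 CPM in Chrom3-5R and 4061, 3987, 3830 and 3651 CPM in Chrom3-160R. The chromosome 2 groups did not overlap and the chromosome 3 groups did. CYP6 genes carried 31.3% of the sum, CYP4 genes 29.6% and CYP313 genes 14.6%. In Chrom2-5R, Cyp313a1 had a mean of 554 CPM and the whole CYP313 family 561 CPM. Since Cyp313a1 lies within Pde6, its counts, and so these sums, may include reads of Pde6. The CYP6 genes had a mean of 1195 ± 54.4 CPM (SD, n = 4) in Chrom2-5R and 919 ± 98.1 CPM in Chrom2-160R. The CYP309 family had the widest relative gap among the families with more than 1 gene, at 86.3 ± 7.31 CPM in Chrom2-5R and 30.3 ± 15.5 CPM in Chrom2-160R. The CYP28 family, at 60.4 ± 2.36 and 59.1 ± 7.37 CPM, lay within its spread. These sums are descriptions without a test.

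**Figure D1:**
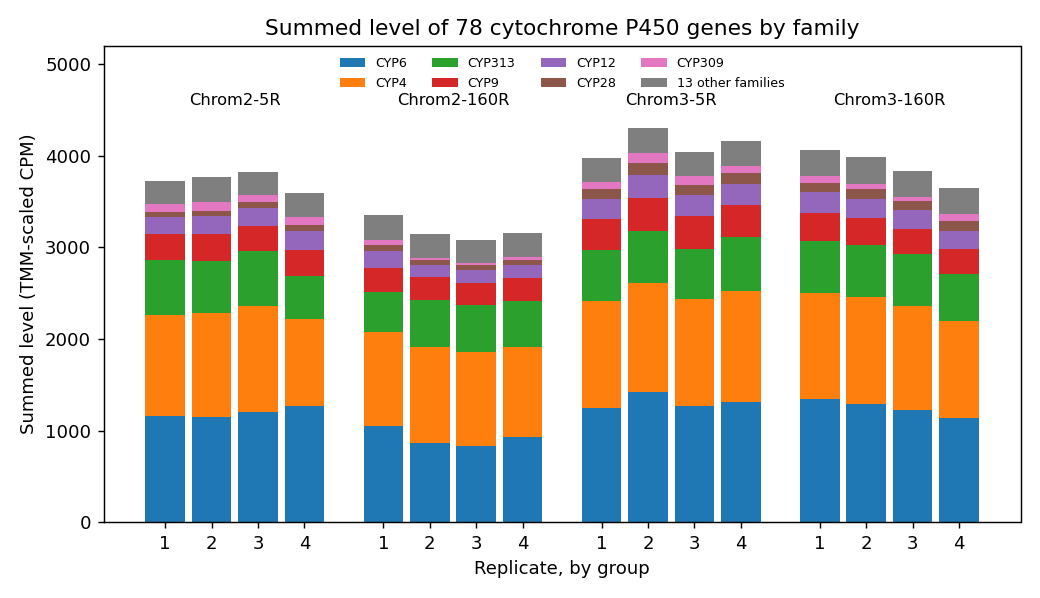
Stacked bars give the summed TMM-scaled CPM of the 78 P450 genes in each of the 16 libraries, coloured by family, with the replicate number on the x axis. The Chrom2-160R bars, between 3077 and 3353 CPM, are the shortest, and the CYP6 family (the lowest block) is shorter there than in Chrom2-5R.

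The first comparison asked which P450 genes differ between flies with the long and the short repeat on chromosome 2. Of the 75 genes tested, 40 were called at an adjusted p below 0.05 with edgeR's quasi-likelihood test, or 53.3%, where 26.1% of all 13525 genes tested were called. The calls were mostly falls: 34 genes, or 45.3%, were lower in 160R heads, against 13.3% of all genes, and 6 genes, or 8%, were higher, against 12.8%. Among the called genes, 16 changed by at least 1.5-fold and 6 by at least 2-fold, all 6 of these being lower. The median log2 change over the 75 genes was -0.18, and over all genes tested 0.01. In heads, fewer cells of a type and less RNA per cell cannot be told apart.

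By family, 13 of the 23 CYP6 genes fell and 1 rose, where 13.3% of all genes fell and 12.8% rose. Among the 22 CYP4 genes, 9 fell and 2 rose. Of the 5 CYP12 genes, which belong to the mitochondrial clan, 4 fell and none rose. Of the 5 CYP9 genes, 2 fell and 1 rose. Both CYP309 genes fell, 2 of the 3 CYP313 genes tested fell, and neither of the 2 CYP28 genes was called. The CYP313 calls, of Cyp313a1 and Cyp313b1, were lost without any of 7 and any of 6 single libraries. By clan, 18 of 35 CYP3 clan genes fell and 3 rose, 12 of 29 tested CYP4 clan genes fell and 3 rose, 4 of 7 mitochondrial clan genes fell, and none of the 4 CYP2 clan genes was called. The median log2 change was -0.27 for CYP6, -0.04 for CYP4, -0.25 for CYP9 and -0.41 for CYP12. Lower calls lay on every arm: 17 of 32 genes on 2R, 4 of 11 on 2L, 3 of 6 on 3L, 5 of 12 tested on 3R and 5 of 14 on X.

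**Figure D2:**
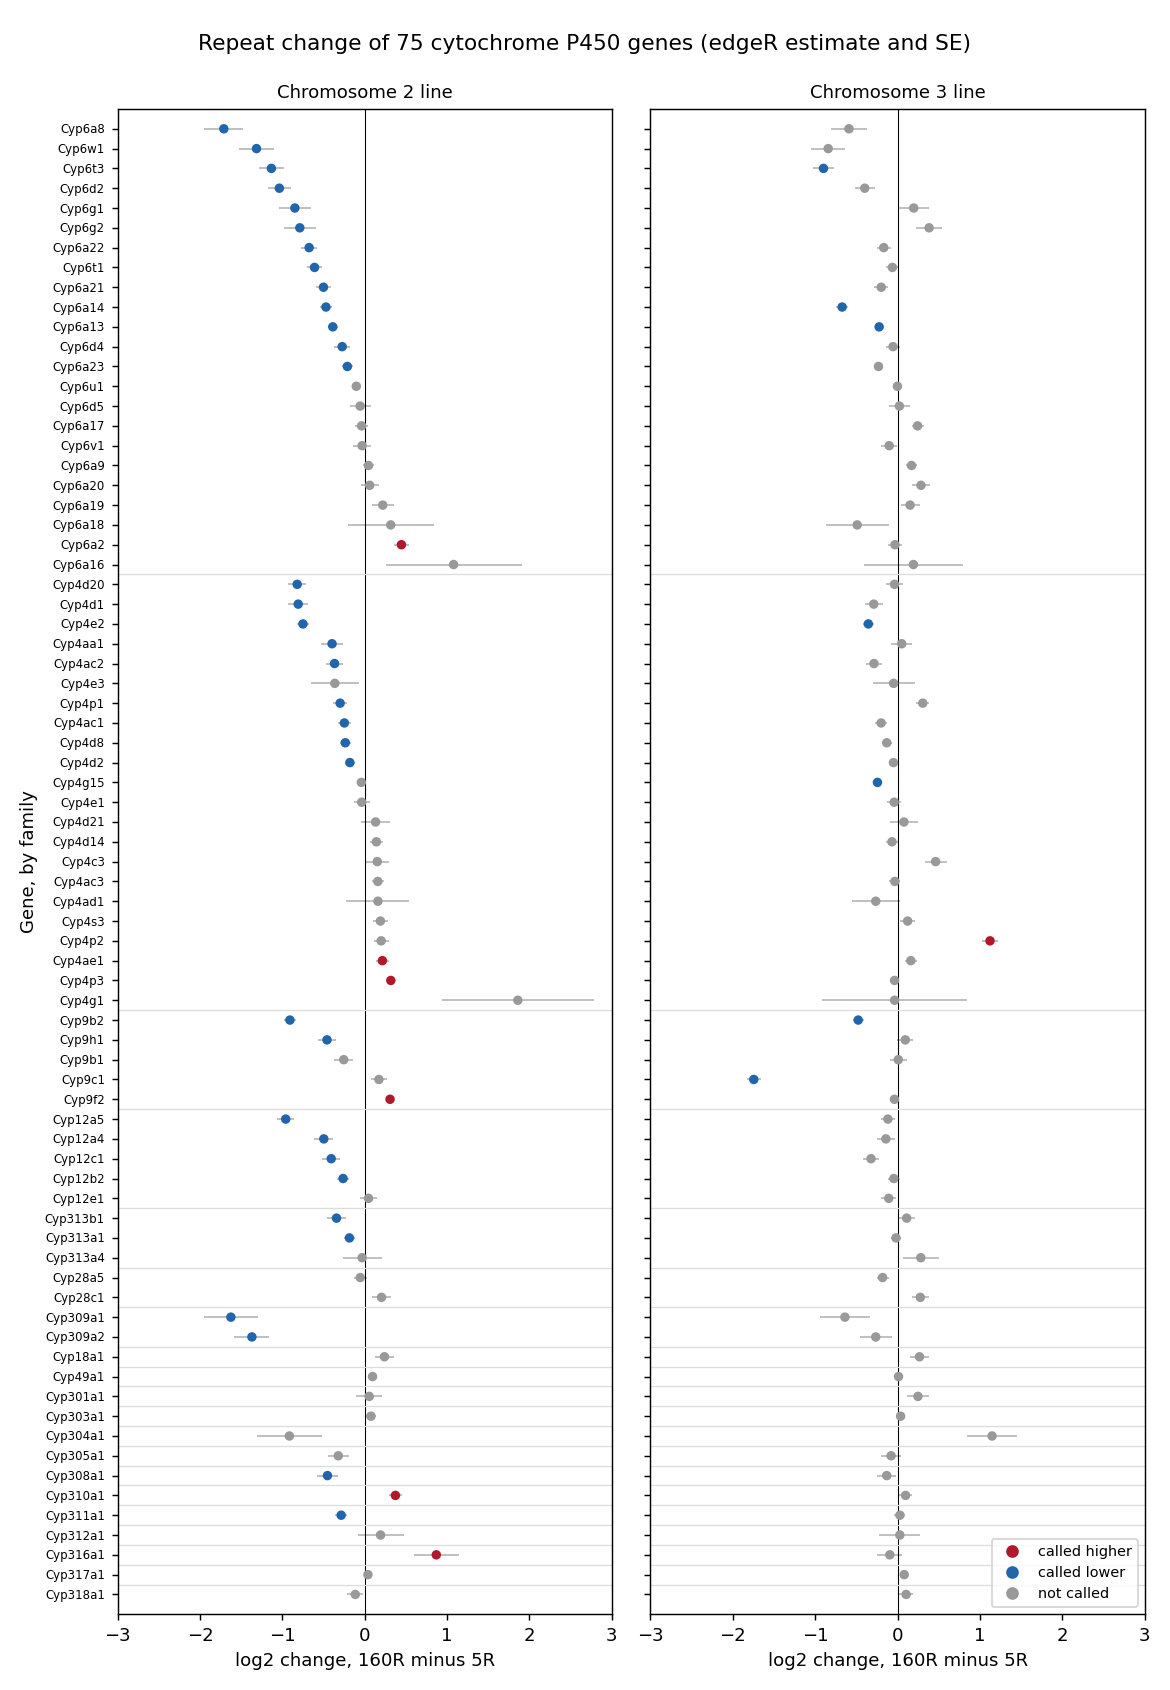
Points give the log2 change (160R minus 5R) of each of the 75 tested P450 genes with its standard error, grouped by family, for the chromosome 2 line (left) and the chromosome 3 line (right). Blue marks genes called lower, red genes called higher and grey genes not called; 34 are blue on the left and 7 on the right.

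Genes known from insecticide and drug metabolism made up 7 of the 78. In the chromosome 2 line 5 of them fell and 1 rose, with a median log2 change of -0.79. Of all genes, 13.3% fell and 12.8% rose in that line. Cyp6a8, tied to insecticide resistance and inducible by caffeine, was at 30.7, 31.6, 36.4 and 38.6 CPM in Chrom2-5R and at 12, 8.48, 7.69 and 13.8 CPM in Chrom2-160R. The groups were far apart, and the fall was 3.27-fold (log2 change -1.71 ± 0.24 SE, edgeR adjusted p = 0.000238), the largest of any P450 gene called in this line. Chromosome 3 levels overlapped, at 31.5, 24.7, 28.8 and 29.98 CPM in Chrom3-5R and 28.2, 14.6, 13.7 and 19.9 CPM in Chrom3-160R, with a log2 change of -0.59 ± 0.22 (adjusted p = 0.222).

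Cyp6w1, linked to DDT resistance, was at 219, 221, 234 and 127 CPM in Chrom2-5R and 58.3, 87.5, 73.9 and 102 CPM in Chrom2-160R. Replicate 4 of the control group was well below the other controls but above every 160R library. The fall was 2.48-fold (log2 change -1.31 ± 0.22 SE, edgeR adjusted p = 0.000800). Its levels in the chromosome 3 line were 228, 216, 234 and 234 CPM in Chrom3-5R and 162, 108, 101 and 137 CPM in Chrom3-160R. These groups did not overlap either, but the log2 change of -0.84 ± 0.21 missed the threshold (adjusted p = 0.0635).

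Cyp6g1, whose overexpression gives resistance to DDT and neonicotinoids, was at 231, 219, 230.3 and 301 CPM in Chrom2-5R and 195, 113, 119 and 120.4 CPM in Chrom2-160R. The 160R replicate that also carried male reproductive tract RNA was the highest of its group, yet under all controls. The fall was 1.8-fold (log2 change -0.85 ± 0.19 SE, edgeR adjusted p = 0.00635). On chromosome 3 Cyp6g1 was at 212, 327, 239 and 229 CPM in Chrom3-5R and 307, 321, 291 and 234 CPM in Chrom3-160R, overlapping, with a log2 change of 0.20 ± 0.19. Its neighbour Cyp6g2, which can give resistance when overexpressed, was at 2.45, 3.05, 2.36 and 2.96 CPM in Chrom2-5R and 1.52, 1.83, 1.32 and 1.7 CPM in Chrom2-160R, without overlap and 1.73-fold lower (log2 change -0.79 ± 0.19 SE, adjusted p = 0.00634). On chromosome 3 Cyp6g2 was at 2.81, 3.51, 2.83 and 2.52 CPM and 3.19, 3.18, 5.24 and 3.61 CPM, overlapping, with a log2 change of 0.38 ± 0.15.

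Cyp12a4, a mitochondrial P450 whose overexpression gives lufenuron resistance, was at 92.3, 96.3, 96.4 and 92.2 CPM in Chrom2-5R and 90.1, 58.9, 57.5 and 61.4 CPM in Chrom2-160R. Replicate 1 of the 160R group stood close to the controls and the other 3 well below. The fall was 1.41-fold (log2 change -0.50 ± 0.11 SE, adjusted p = 0.00558). On chromosome 3 it was at 93.1, 113, 103 and 101 CPM and 100.1, 93.9, 88.1 and 89.1 CPM, overlapping, with a log2 change of -0.14 ± 0.11. Cyp4e3, linked to permethrin tolerance, was not called in either line: it was at 9.23, 10.4, 10.9 and 8.74 CPM in Chrom2-5R, 11.8, 5.8, 7.39 and 5.81 CPM in Chrom2-160R, 15.1, 13.2, 20.5 and 16.3 CPM in Chrom3-5R and 16.7, 12.2, 10.4 and 23.7 CPM in Chrom3-160R. The log2 changes of -0.36 ± 0.29 and -0.05 ± 0.25 carry wide errors.

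Cyp6a2, which metabolises DDT and other insecticides, went the other way from the rest of the group. It was at 67.5, 62.9, 69.5 and 64.3 CPM in Chrom2-5R and 94.6, 84.8, 82.3 and 98 CPM in Chrom2-160R, without overlap, and rose 1.36-fold (log2 change 0.45 ± 0.09 SE, adjusted p = 0.00144). Its chromosome 3 levels were 116, 126, 122 and 121 CPM and 142, 123, 107 and 103 CPM, overlapping, with a log2 change of -0.03 ± 0.08. Cyp6a2 lies within Epac on the same strand, and Epac itself, with 3.7 times its counts, was not called in either line (0.06 ± 0.03 and -0.02 ± 0.03). None of the 7 genes of this group was called in the chromosome 3 line, where 2.11% of all genes were called.

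Ecdysone metabolism was represented by Cyp6t3 and Cyp18a1. Cyp6t3, needed for ecdysone synthesis in the larval prothoracic gland, was at 3.2, 3.35, 3.17 and 3.39 CPM in Chrom2-5R and 1.52, 0.966, 1.75 and 1.63 CPM in Chrom2-160R. In the chromosome 3 line it was at 4.57, 4.47, 5.82 and 4.76 CPM in Chrom3-5R and 2.83, 2.88, 2.53 and 2.26 CPM in Chrom3-160R. In each line every 160R library was below every control. The fall was 2.19-fold on chromosome 2 (log2 change -1.13 ± 0.15 SE, edgeR adjusted p = 6.84e-05) and 1.87-fold on chromosome 3 (log2 change -0.90 ± 0.12 SE, adjusted p = 0.000459). The difference between the lines was 0.23 ± 0.20 and was not called (adjusted p = 0.529).

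Cyp18a1 encodes the hydroxylase that inactivates 20-hydroxyecdysone. It was at 33.1, 40.05, 30.2 and 36.1 CPM in Chrom2-5R, 42.8, 39.4, 38.1 and 44.5 CPM in Chrom2-160R, 28.7, 36.7, 25.5 and 29.96 CPM in Chrom3-5R and 30.5, 41.5, 39.2 and 34.2 CPM in Chrom3-160R. The groups overlapped in both lines, and the log2 changes were 0.24 ± 0.12 (adjusted p = 0.156) and 0.27 ± 0.12 (adjusted p = 0.291).

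Of the 8 Halloween genes, which make ecdysone from cholesterol and are mostly P450s under other names, 1 was called in the chromosome 2 line and none in the chromosome 3 line. The called gene was shd, the hydroxylase that makes 20-hydroxyecdysone from ecdysone in peripheral tissues, with a log2 change of -0.91 ± 0.23 on chromosome 2 (adjusted p = 0.00835) and 0.27 ± 0.21 on chromosome 3. Of 13 genes for the ecdysone receptor and its early targets, 2 rose on chromosome 2 (Eip78C, 0.38 ± 0.07, and ftz-f1, 0.15 ± 0.04) and 2 fell (usp, -0.12 ± 0.03, and Hr39, -0.16 ± 0.04). These calls lay near the share of all genes, of which 26.1% were called in that line. None of the 13 was called on chromosome 3. The receptor gene EcR had log2 changes of -0.01 ± 0.05 and -0.11 ± 0.05.

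Lipid metabolism was represented by 3 genes, of which 1 fell in each line, a different one in each. Of all genes, 13.3% fell on chromosome 2 and 1.43% on chromosome 3. Cyp311a1, known from phospholipid metabolism of the larval midgut, was at 30.1, 35.8, 30.8 and 32.2 CPM in Chrom2-5R and 27.6, 25.4, 25.7 and 27.1 CPM in Chrom2-160R. These did not overlap, and the fall was 1.22-fold (log2 change -0.29 ± 0.07 SE, adjusted p = 0.00675). On chromosome 3 it was at 27.9, 31, 29.9 and 29.9 CPM and 33, 32.9, 27.9 and 27.3 CPM, with a log2 change of 0.03 ± 0.07. The difference between the lines missed the threshold, at 0.31 ± 0.10 (adjusted p = 0.0579).

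Cyp4g15, a close relative of the hydrocarbon enzyme Cyp4g1 that is found in the nervous system, was at 219.5, 222, 215 and 230.2 CPM in Chrom3-5R and 191, 196, 192 and 170.4 CPM in Chrom3-160R. Every 160R library was below every control, and the fall was 1.18-fold (log2 change -0.24 ± 0.05 SE, adjusted p = 0.0212). The call ended when Chrom3-5R replicate 1, Chrom3-5R replicate 4 or Chrom3-160R replicate 4 was left out, with adjusted p between 0.0549 and 0.0834. On chromosome 2 it was at 212, 199.7, 217 and 183 CPM and 194, 193, 209.7 and 191 CPM, overlapping, with a log2 change of -0.04 ± 0.05, and the difference between the lines was not called (-0.20 ± 0.08, adjusted p = 0.116).

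Cyp4g1 encodes the oxidative decarbonylase that makes cuticular hydrocarbons in oenocytes, cells of the abdomen. It was at 1.41, 12.8, 2.1 and 5.79 CPM in Chrom2-5R and 64.3, 11.5, 3.47 and 6.37 CPM in Chrom2-160R, the first of the latter being the library with male reproductive tract RNA. Chromosome 3 libraries were at 1.8, 5.24, 7.19 and 5.53 CPM and 2.62, 8.03, 5.53 and 3.06 CPM. The groups overlapped in both lines, and the log2 changes were 1.86 ± 0.92 (adjusted p = 0.163) and -0.04 ± 0.88 (adjusted p = 0.994). Cyp4g1 lies within CG32816 on the same strand, which had 6.63 times its counts and rose on chromosome 2 (1.16 ± 0.36, adjusted p = 0.0323). In the chromosome 2 line 13.3% of all genes fell. Of 6 tested oenocyte hydrocarbon genes, 3 fell there: Desat1 (-0.77 ± 0.11), Desat2 (-1.03 ± 0.21) and CG6746 (-0.29 ± 0.06). None was called in the chromosome 3 line. Desat1 is a fatty acid desaturase that fat body also expresses.

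Genes of behaviour and the sense organs, 4 in all, had no call for the repeat in either line. Cyp4d21 was at 325, 336, 335 and 179 CPM in Chrom2-5R, 257, 370.1, 362 and 298 CPM in Chrom2-160R, 317, 322, 295 and 317 CPM in Chrom3-5R and 326, 357, 348 and 288 CPM in Chrom3-160R. The fourth control library on chromosome 2 was the lowest, the groups overlapped in both lines, and the log2 changes were 0.13 ± 0.17 and 0.08 ± 0.17. Cyp6a20, whose loss raises aggression in males, was at 99.1, 99.4, 108 and 142 CPM, 133, 112, 103 and 119.9 CPM, 83.6, 78.7, 75.2 and 90.8 CPM and 94.3, 104, 108 and 93.9 CPM in the same order of groups. The chromosome 3 groups did not overlap, with 160R higher, but the log2 change of 0.28 ± 0.11 was not called (adjusted p = 0.224).

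Cyp6a17, which affects temperature preference, was at 60.9, 59.1, 62.8 and 73.7 CPM in Chrom2-5R, 66.2, 64.8, 59.5 and 59.8 CPM in Chrom2-160R, 56.4, 65.1, 58.2 and 59.7 CPM in Chrom3-5R and 74.1, 75, 72.8 and 61.4 CPM in Chrom3-160R, with log2 changes of -0.04 ± 0.07 and 0.24 ± 0.07. Cyp303a1, needed for sensory bristles, was at 8.86, 8.73, 9.08 and 9.48 CPM, 9.63, 9.77, 9.38 and 9.44 CPM, 10.3, 10.1, 11.3 and 10.7 CPM and 11.4, 10.7, 11 and 10.3 CPM in the same order, with log2 changes of 0.08 ± 0.06 and 0.04 ± 0.05. Groups of each line overlapped for both genes. Cyp303a1 was the steadier, with an SD of at most 0.516 CPM in a group.

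The cuticle and development group held Cyp301a1 and Cyp310a1. Cyp310a1, tied to Wingless signalling in the wing disc, was at 8.1, 7.31, 8.81 and 7.44 CPM in Chrom2-5R and 9.33, 10.8, 10.5 and 10.3 CPM in Chrom2-160R, without overlap. It rose 1.3-fold (log2 change 0.37 ± 0.08 SE, adjusted p = 0.0032) and was at 10.9, 9.63, 9.46 and 10.7 CPM and 10.2, 11.7, 11.4 and 10.1 CPM in the chromosome 3 groups (0.10 ± 0.07). Cyp310a1 lies within MESR3 on the other strand, which has 18.7 times its counts and also rose on chromosome 2 (0.18 ± 0.05). Cyp301a1, needed for the adult cuticle, was at 3.11, 3.15, 3.22 and 2.13 CPM, 3.65, 2.68, 3.34 and 2.32 CPM, 2.77, 3.3, 2.74 and 2.87 CPM and 3.06, 3.72, 3.36 and 3.73 CPM in the 4 groups in the order above, overlapping in each line, with log2 changes of 0.05 ± 0.16 and 0.25 ± 0.14.

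The other 60 genes have no role in the list used here, and 57 of them were tested. In the chromosome 2 line 27 fell and 4 rose, where 13.3% of all genes fell and 12.8% rose. Several of the largest falls were in this group. Cyp309a1 was at 53.5, 53.9, 44.7 and 59.4 CPM in Chrom2-5R and 32, 10.9, 9.31 and 16.9 CPM in Chrom2-160R, without overlap, and fell 3.08-fold (log2 change -1.62 ± 0.33 SE, adjusted p = 0.00354). Its neighbour on 2L, Cyp309a2, was at 34.9, 37, 30.7 and 31 CPM and 20.8, 9.5, 10.3 and 11.4 CPM and fell 2.58-fold (log2 change -1.37 ± 0.21 SE, adjusted p = 0.000495). In both genes replicate 1 of Chrom2-160R was the highest of its group. On chromosome 3 Cyp309a1 was at 47.8, 68.8, 69.1 and 49.7 CPM and 43.3, 34.2, 27.4 and 46.1 CPM, without overlap but not called (-0.64 ± 0.31, adjusted p = 0.361). Cyp309a2 was at 25.9, 37.4, 32.3 and 29.2 CPM and 28, 25.7, 21.5 and 28.7 CPM there, overlapping, with a log2 change of -0.27 ± 0.20.

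Cyp6d2 was at 5.28, 6.04, 5.75 and 4.39 CPM in Chrom2-5R and 2.79, 2.2, 2.56 and 2.84 CPM in Chrom2-160R and fell 2.05-fold (log2 change -1.04 ± 0.14 SE, adjusted p = 6.06e-05). Its chromosome 3 levels were 5.68, 6.28, 5.66 and 5.66 CPM and 5.62, 3.7, 4.18 and 4.15 CPM, with a log2 change of -0.40 ± 0.12 that was not called. Neither pair of groups overlapped. Of its span, 52.2% overlaps nsr on the other strand, which fell on chromosome 2 (-0.79 ± 0.16) and on chromosome 3 (-0.56 ± 0.13).

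Cyp12a5, which adjoins Cyp12a4, was at 7.82, 11.9, 10.7 and 11.7 CPM in Chrom2-5R and 5.52, 5.69, 5.03 and 5.78 CPM in Chrom2-160R, without overlap, and fell 1.94-fold (log2 change -0.96 ± 0.10 SE, adjusted p = 7.55e-06). Chromosome 3 libraries were at 16.5, 18.7, 19.1 and 18.6 CPM and 17.3, 16.8, 17.9 and 15.2 CPM, overlapping (-0.12 ± 0.09). Cyp12a5 was thus higher in both chromosome 3 groups than in any chromosome 2 library. Cyp316a1, a gene of low level, was at 0.377, 0.406, 0.322 and 0.479 CPM in Chrom2-5R and 0.862, 0.859, 0.371 and 0.914 CPM in Chrom2-160R. The third 160R library lay within the controls, and the rise of 1.83-fold (log2 change 0.87 ± 0.27 SE, adjusted p = 0.0254) lost its call without any of 5 single libraries, with adjusted p up to 0.129. On chromosome 3 it was at 2.32, 2.62, 2.6 and 2.42 CPM and 2.48, 2.53, 2.29 and 2.02 CPM (-0.09 ± 0.15).

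Of the other 23 genes with no listed role that fell on chromosome 2, 10 are given with the comparisons that follow. The remaining 13 were Cyp4d1 (-0.81 ± 0.12), Cyp6t1 (-0.61 ± 0.09), Cyp9h1 (-0.46 ± 0.11), Cyp308a1 (-0.45 ± 0.13), Cyp12c1 (-0.41 ± 0.11), Cyp4aa1 (-0.40 ± 0.14), Cyp4ac2 (-0.37 ± 0.10), Cyp313b1 (-0.34 ± 0.12), Cyp6d4 (-0.27 ± 0.10), Cyp12b2 (-0.26 ± 0.07), Cyp4ac1 (-0.25 ± 0.08), Cyp4d8 (-0.24 ± 0.07) and Cyp4d2 (-0.18 ± 0.06). Among them, Cyp313b1, Cyp4aa1 and Cyp6d4 sat near the threshold (adjusted p = 0.0379, 0.0426 and 0.0497), and their calls were lost without any of 6, 6 and 7 single libraries. The call of Cyp4d2 was lost without any of 4, that of Cyp4ac1 without any of 3, that of Cyp4ac2 without the fourth Chrom2-5R or the first Chrom2-160R library, and those of Cyp308a1 and Cyp4d8 without Chrom2-5R replicate 1 and without Chrom2-160R replicate 3. Cyp308a1 lies within CCKLR-17D1, which has 7.13 times its counts and also fell (-0.19 ± 0.05). Of the 13, Cyp6t1 went from 23.8 ± 1.55 CPM in Chrom2-5R to 15.6 ± 1.82 CPM in Chrom2-160R (SD, n = 4) without overlap. It lies within CR45082 on the same strand, which had 1.26 times its counts and also fell (-0.40 ± 0.08). The counts of CR45082 may include the reads of Cyp6t1, so its fall is no separate measurement. Cyp4d1 went from 8.22 ± 0.946 to 4.7 ± 0.571 CPM, also without overlap. Cyp9f2 was the clearest rise, from 124 ± 4.72 to 154 ± 6.39 CPM without overlap (1.24-fold, 0.31 ± 0.05, adjusted p = 0.000448), while in the chromosome 3 line it was at 144 ± 9.33 and 141 ± 8.42 CPM. The rise of Cyp4ae1 (0.21 ± 0.08) had an adjusted p of 0.0432 and was lost without any of 13 single libraries.

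**Figure D3:**
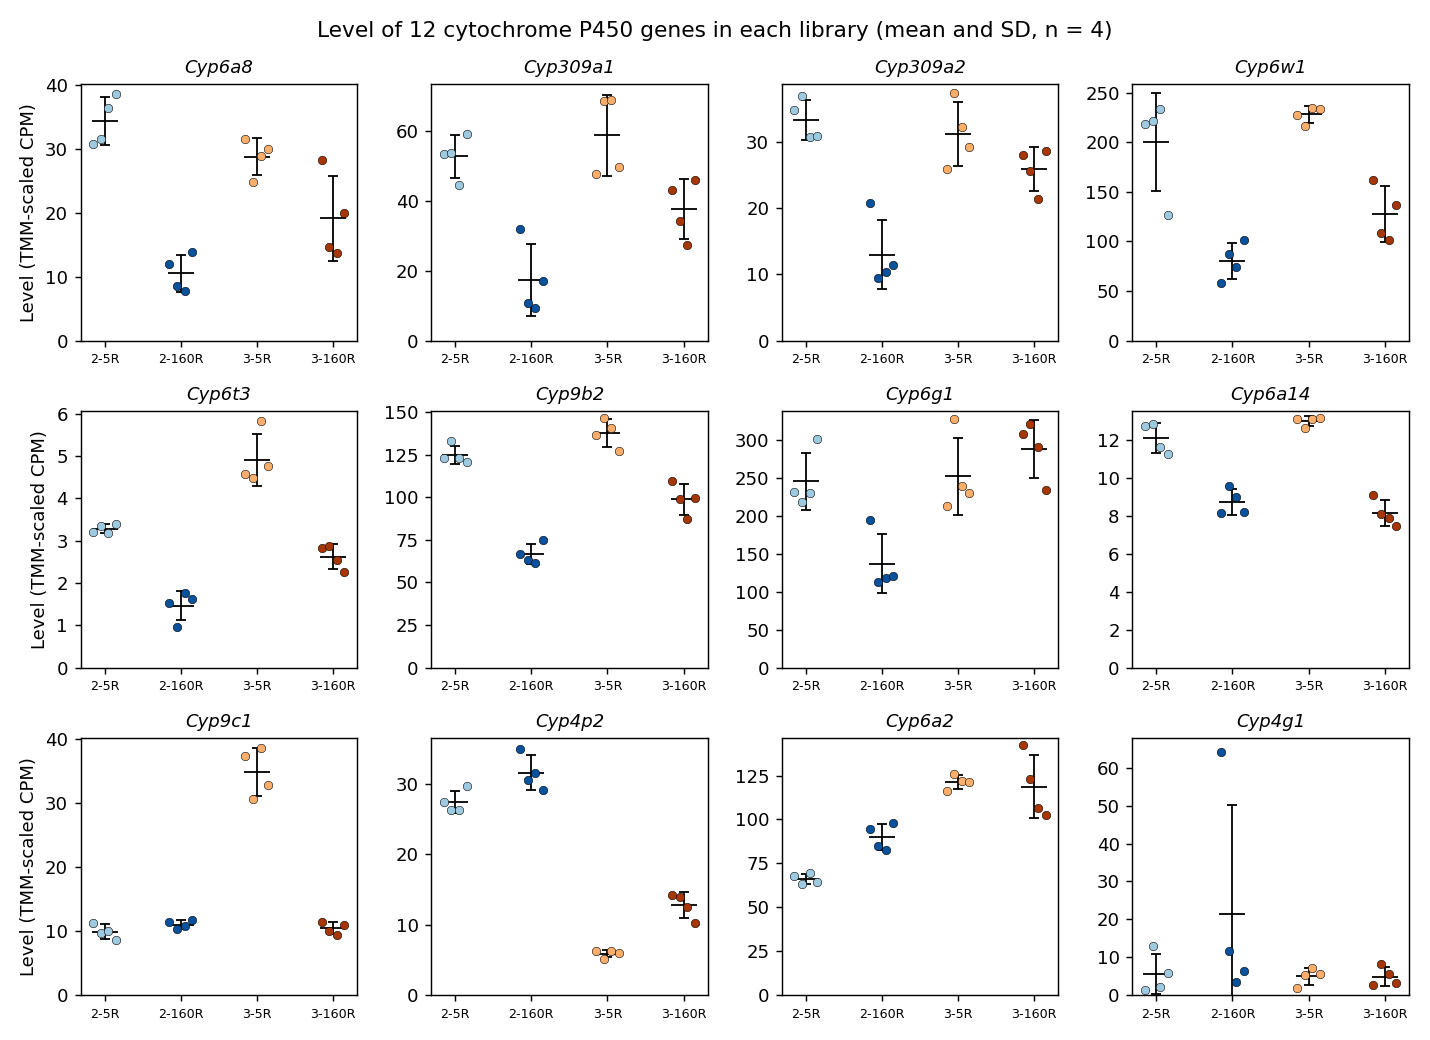
Dots give the TMM-scaled CPM of 12 P450 genes in each of the 4 libraries of a group, with the group mean and SD as black bars (the lower SD bar of Cyp4g1 in Chrom2-160R is cut at 0). Cyp6a8, Cyp309a1 and Cyp309a2 are lowest in Chrom2-160R, Cyp6t3 and Cyp9b2 are lower in 160R of both lines, Cyp9c1 is high in Chrom3-5R, and Cyp4g1 has 1 library at 64.3 CPM.

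The second comparison asked the same question of the chromosome 3 line. Of 75 genes, 8 were called, or 10.7%, against the 2.11% of all genes given above: 7 were lower, or 9.33%, against 1.43% of all genes, and 1 was higher, or 1.33%, against 0.673%. The median log2 change was -0.04 over the P450 genes and 0.00 over all genes. By family, 3 of 23 CYP6 genes fell, 2 of 22 CYP4 genes fell and 1 rose, and 2 of 5 CYP9 genes fell. No gene of the other families was called. The count of 8 went to 16 with DESeq2, 13 with limma-voom, 13 without Chrom2-160R replicate 1 and 13 without Chrom3-160R replicate 1. Of all genes, 4.44%, 3.21%, 3.24% and 2.51% were called in the same fits, in that order. The 1 higher gene became 2 without Chrom2-5R replicate 3, Chrom2-5R replicate 4 or Chrom3-160R replicate 1. The higher genes became 3 without Chrom2-160R replicate 1 or Chrom3-160R replicate 4. In either direction those fits called 1.77%, 2.59%, 2.51%, 3.24% and 1.51% of all genes, in that order.

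Cyp9c1 had the largest change of this line. It was at 37.4, 30.6, 38.7 and 32.9 CPM in Chrom3-5R and 11.3, 9.99, 9.3 and 11 CPM in Chrom3-160R, a fall of 3.35-fold (log2 change -1.75 ± 0.09 SE, adjusted p = 1.08e-09). In the chromosome 2 line it was at 11.3, 9.64, 9.996 and 8.53 CPM in Chrom2-5R and 11.4, 10.3, 10.7 and 11.7 CPM in Chrom2-160R. Chrom3-5R thus stood above the 3 other groups, whose libraries lay between 8.53 and 11.7 CPM. Cyp9c1 spans positions 24631063 to 24632923 of 2R (BDGP6, plus strand), where the uncharacterised CR43787 is annotated on the other strand over the whole gene with 1.01 times its counts. CR43787 changed by -1.74 ± 0.08 in this line, and CG13594, which also covers the gene on that strand, by -0.38 ± 0.04. The counts of CR43787 were 1 to 1.03 times those of Cyp9c1 in all 16 libraries. No source used here says whether the counting used strand, so reads from Cyp9c1 and from these partners cannot be told apart. The change of CR43787 is therefore no separate measurement.

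Cyp4p2, the gene called higher, was at 6.22, 5.07, 6.19 and 5.97 CPM in Chrom3-5R and 14.3, 14, 12.6 and 10.2 CPM in Chrom3-160R, a rise of 2.18-fold (log2 change 1.12 ± 0.10 SE, adjusted p = 2.04e-06). In the chromosome 2 line it was at 27.4, 26.3, 26.4 and 29.8 CPM and 35.1, 30.5, 31.6 and 29.2 CPM, overlapping and not called (0.20 ± 0.09, adjusted p = 0.122). All chromosome 2 libraries were above all chromosome 3 libraries. Cyp4p2 lies within hig, on the other strand, with 39.1 times its counts, and hig was not called in either line (0.01 ± 0.03 and 0.09 ± 0.03).

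In both lines 5 of the 75 tested genes fell: Cyp6t3, Cyp9b2, Cyp4e2, Cyp6a14 and Cyp6a13. Of all genes, 13.3% fell on chromosome 2 and 1.43% on chromosome 3, and how many fell in both was not counted. The chromosome 2 and chromosome 3 comparisons share no library, but they share 1 estimate of the spread. Cyp6a14 was at 12.7, 12.8, 11.6 and 11.3 CPM in Chrom2-5R, 8.16, 9.56, 9.01 and 8.2 CPM in Chrom2-160R, 13.1, 12.6, 13.1 and 13.1 CPM in Chrom3-5R and 9.11, 8.07, 7.9 and 7.46 CPM in Chrom3-160R. The groups did not overlap in either line, and the falls were 1.39-fold (-0.47 ± 0.07, adjusted p = 0.000247) and 1.59-fold (-0.67 ± 0.07, adjusted p = 1.70e-05). Its neighbour Cyp6a13 had means of 29.4 ± 0.647, 22.5 ± 1.37, 34.4 ± 1.79 and 29.4 ± 2.18 CPM (SD, n = 4) and fell by log2 changes of -0.39 ± 0.06 and -0.22 ± 0.06. The second of these calls sat at the threshold (adjusted p = 0.046) and was lost without any of 12 single libraries, with adjusted p up to 0.178.

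Cyp9b2 was at 123, 133, 123 and 120.4 CPM in Chrom2-5R, 66.8, 63, 61.5 and 74.7 CPM in Chrom2-160R, 136, 146, 140.4 and 127 CPM in Chrom3-5R and 109.7, 98.8, 87.2 and 99.5 CPM in Chrom3-160R. Every 160R library was below every control of its line, and the falls were 1.88-fold (-0.91 ± 0.07, adjusted p = 2.37e-07) and 1.39-fold (-0.48 ± 0.07, adjusted p = 0.000572). Cyp4e2 had means of 123 ± 4.76, 73.3 ± 8.99, 145 ± 7.94 and 113 ± 6.2 CPM (SD, n = 4), again without overlap in either line, and fell 1.68-fold and 1.28-fold (adjusted p = 1.64e-06 and 0.00794). Both falls were larger on chromosome 2 by the test of the difference, at 0.43 ± 0.10 for Cyp9b2 (adjusted p = 0.0131) and 0.39 ± 0.10 for Cyp4e2 (adjusted p = 0.0218). The latter was lost without Chrom2-5R replicate 3, at an adjusted p of 0.0501. The molecules that Cyp9b2, Cyp4e2, Cyp6a13 and Cyp6a14 act on are not known.

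Across the 75 genes, 51 had a log2 change of the same sign in both lines. The changes had a Pearson's r of 0.29 and a Spearman's rho of 0.42 across the 75 genes, where all genes gave r = 0.41. These are descriptions across genes, which are not independent replicates. No P450 gene was called in opposite directions, and 32 were called in neither line. The same counts were not taken over all genes.

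**Figure D4:**
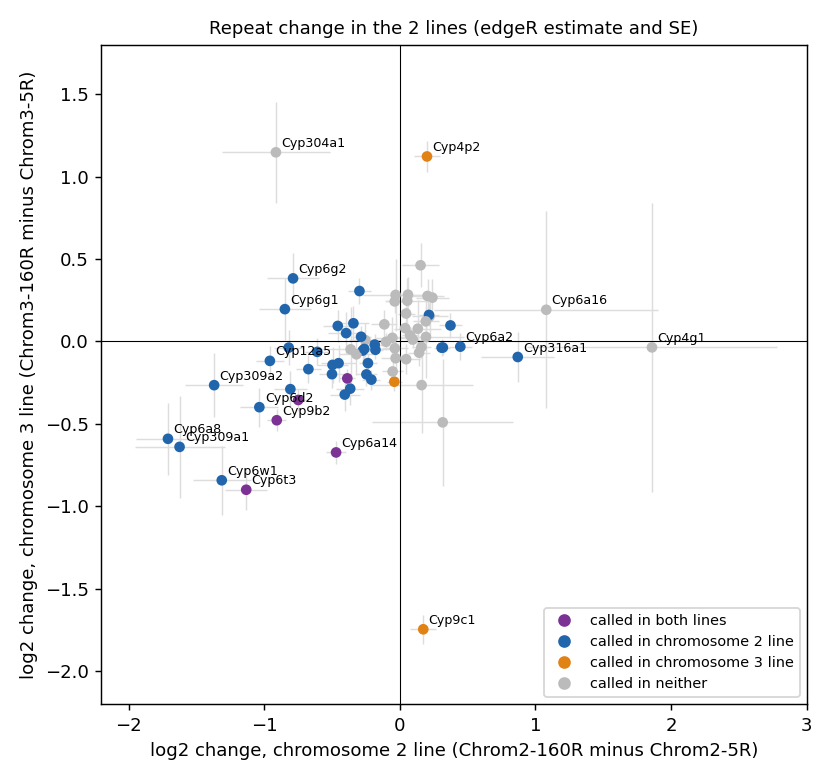
Each of the 75 tested P450 genes is a point at its log2 change (160R minus 5R) in the chromosome 2 line (x) and the chromosome 3 line (y), with standard errors as grey lines. The 5 purple points, called lower in both lines, lie in the lower left; Cyp9c1 and Cyp4p2 lie near 0 on x and at -1.75 and 1.12 on y.

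The third comparison tested the difference itself, the repeat change on chromosome 3 minus that on chromosome 2. It was called for 18 of the 75 genes, or 24%, against 7.27% of all genes. In 14 genes, or 18.7% against 3.9% of all genes, the chromosome 3 change was the higher (less negative or more positive), and in 4, or 5.33% against 3.36%, the lower. The 14 became 8 without Chrom2-160R replicate 2, and 9 without Chrom2-5R replicate 3 or Chrom2-160R replicate 3. In either direction those fits called the difference for 4.28%, 4.17% and 4.9% of all genes, in that order. The widest difference was in Cyp304a1, of unknown function, at 2.06 ± 0.50 (adjusted p = 0.0222). It was at 1.23, 1.27, 1.34 and 1.78 CPM in Chrom2-5R, 1.12, 0.591, 0.742 and 0.62 CPM in Chrom2-160R, 1.05, 1.001, 0.754 and 1.08 CPM in Chrom3-5R and 1.34, 2.22, 3.92 and 1.19 CPM in Chrom3-160R. The 160R libraries were all lower on chromosome 2 and all higher on chromosome 3, with 1 library at 3.92 CPM, and neither change alone was called (-0.91 ± 0.40 and 1.15 ± 0.31). Without Chrom2-160R replicate 2 the difference was not called (adjusted p = 0.054), nor with limma-voom (adjusted p = 0.0754). The gene lies within grsm, which has 37.5 times its counts.

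Cyp9c1 had the next widest difference (-1.92 ± 0.13, adjusted p = 8.81e-08), followed by Cyp6g2 (1.17 ± 0.25, adjusted p = 0.0087), Cyp309a2 (1.10 ± 0.29, adjusted p = 0.0369), Cyp6g1 (1.04 ± 0.27, adjusted p = 0.0365) and Cyp4p2 (0.92 ± 0.13, adjusted p = 0.000625). For Cyp309a2 and Cyp6g1 the call was lost without 12 and without 10 of the single libraries, with adjusted p up to 0.0748 and 0.0772, while Cyp6g2, Cyp9c1 and Cyp4p2 were called under every alternative run. The large falls of Cyp6a8, Cyp309a1 and Cyp6w1 on chromosome 2 were not shown to differ from chromosome 3: the differences were 1.12 ± 0.32 (adjusted p = 0.053), 0.98 ± 0.45 (adjusted p = 0.212) and 0.47 ± 0.30 (adjusted p = 0.386).

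The lines also differed at the same repeat length. Between the short-repeat controls, 35 of 75 P450 genes were called, or 46.7%, against 30.3% of all genes: 28 were higher in Chrom3-5R and 7 lower, against 15.4% and 14.9% of all genes. Between the long-repeat groups, 36 were called, or 48%, against 22.5% of all genes: 34 were higher in Chrom3-160R and 2 lower, against 11.8% and 10.7%. The 2 lower genes became 4 without Chrom2-5R replicate 4, where 23.6% of all genes were called in either direction. These comparisons share their libraries with the repeat comparisons. Stock background, handling and the sequencing depth given above differ along with the insertion site and cannot be told apart from it.

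Between the controls the widest differences were in 4 genes. Cyp316a1 was 6.15-fold higher in Chrom3-5R (2.62 ± 0.22, adjusted p = 4.63e-07) and Cyp9c1 was 3.57-fold higher (1.84 ± 0.09, adjusted p = 1.04e-09). Cyp4p2 was 4.69-fold lower (-2.23 ± 0.10, adjusted p = 4.86e-10). Cyp4d20 was at 71, 72.3, 77.2 and 47.3 CPM in Chrom2-5R, 38.1, 36.9, 36.7 and 39.7 CPM in Chrom2-160R, 31.2, 32.4, 33 and 35.8 CPM in Chrom3-5R and 33.9, 32.1, 30.8 and 32.2 CPM in Chrom3-160R. Its Chrom2-5R libraries were above all others, so that it was both 2.02-fold lower in Chrom3-5R (-1.01 ± 0.11, adjusted p = 7.83e-06) and 1.76-fold lower in Chrom2-160R (-0.82 ± 0.11, adjusted p = 8.09e-05). Cyp4d20 lies within CG45186 on the other strand, which has 23.5 times its counts and was lower in the same comparisons (-0.15 ± 0.04 and -0.15 ± 0.04). Among the genes of insecticide metabolism, 1 of 7 was called between the controls, Cyp6a2, and all 7 were higher in Chrom3-160R than in Chrom2-160R, by log2 changes between 0.40 ± 0.08 for Cyp6a2 and 1.27 ± 0.17 for Cyp6g2. Of these 7, the call of Cyp6w1 (adjusted p = 0.0406) was lost under 14 of 24 alternatives, that of Cyp6a8 under 4, and those of Cyp12a4 and Cyp4e3 when the groups compared were fitted alone.

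Many P450 genes sit in runs of relatives, so their map position was set beside the changes. Genes within 5 kb of another P450 gene of the set formed 13 runs with 38 genes, and 12 of these runs had tested genes. In the chromosome 2 line, where 13.3% of all genes fell, every gene fell in 4 runs. These were Cyp309a1 and Cyp309a2 on 2L, Cyp6a14 and Cyp6a13 on 2R, Cyp6g1, Cyp6g2 and Cyp6t3 on 2R, and Cyp12a5 and Cyp12a4 on 3R. In 3 runs some genes rose and others fell. In the Cyp4p run within hig, Cyp4p1 fell (-0.30 ± 0.08), Cyp4p3 rose (0.32 ± 0.05) and Cyp4p2 was not called. The call of Cyp4p1 was lost without Chrom2-5R replicate 3 (adjusted p = 0.0703). In the chromosome 3 line the Cyp6a14 and Cyp6a13 run was the one in which every gene was called. Relatives in a run can share sequence, and the labels do not say how reads that match several genes were counted.

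The longest run holds 8 Cyp6a genes in 17.6 kb of 2R, from position 14871366 to position 14889010 (BDGP6). In the chromosome 2 line, the genes that fell were Cyp6a22 (-0.67 ± 0.09) and Cyp6a23 (-0.21 ± 0.07) towards one end, and Cyp6a21 (-0.50 ± 0.09) and Cyp6a8 (-1.71 ± 0.24) at the other. The call of Cyp6a23 (adjusted p = 0.0253) was lost with limma-voom (adjusted p = 0.0582) and without any of 3 single libraries. The genes not called were Cyp6a17 (-0.04 ± 0.07), Cyp6a19 (0.22 ± 0.13), Cyp6a9 (0.05 ± 0.06) and Cyp6a20 (0.06 ± 0.11). None of the 8 was called in the chromosome 3 line, where Cyp6a8 was at -0.59 ± 0.22 and Cyp6a22 at -0.17 ± 0.09. The difference between the lines was called for Cyp6a22 (0.51 ± 0.13, adjusted p = 0.0237), and this was lost without Chrom2-160R replicate 2 or replicate 3.

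**Figure D5:**
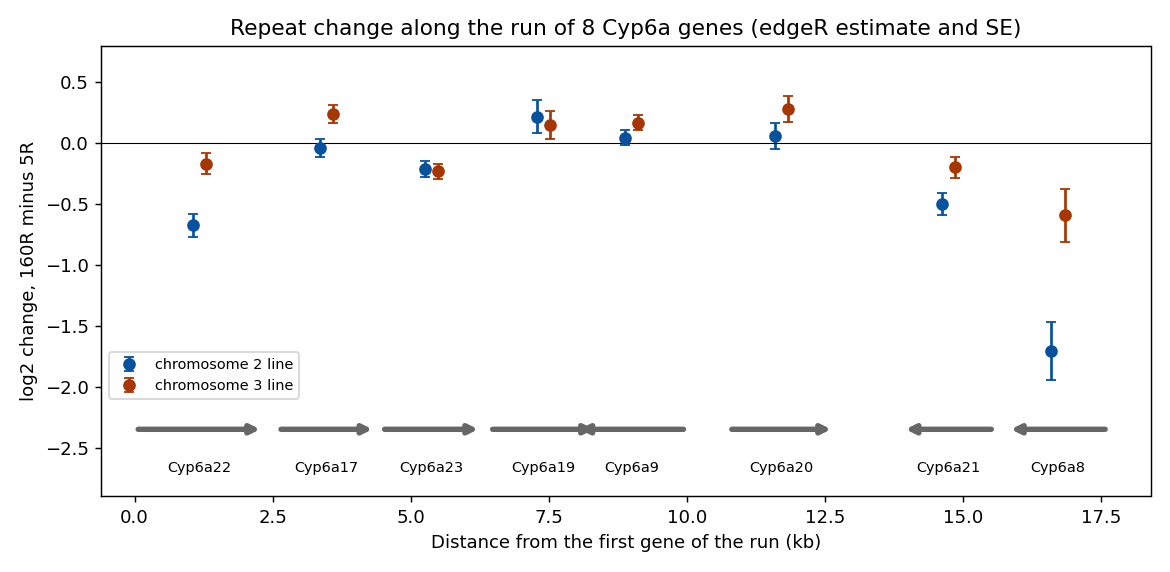
Points give the log2 change (160R minus 5R) with its standard error along the run of 8 Cyp6a genes, against distance in kb from the start of Cyp6a22, for both lines; arrows show each gene and its direction. Cyp6a8 at the right end is lowest, at -1.71 in the chromosome 2 line, and the 3 neighbouring genes Cyp6a19, Cyp6a9 and Cyp6a20 lie at or above 0 in both lines.

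Overlap with other genes limits some of these values. Of the 78 genes, 37 overlap another annotated gene and 21 do so over at least 50% of their span. The libraries had no poly(A) selection, so unspliced RNA of a host gene can carry reads over a P450 gene in its intron. In every pair where the P450 gene lies wholly within its partner, the partner had at least as many counts in all 16 libraries. The partner's counts may include reads of the P450 gene, so the changes of such a pair are not separate measurements. Of all genes, 13.3% fell and 12.8% rose in the chromosome 2 line, and 1.43% fell and 0.673% rose in the chromosome 3 line. Among the 38 tested genes with no overlap, 19 fell and 2 rose in the chromosome 2 line. In the chromosome 3 line 4 of them fell. Among the 16 overlapped over less than 50% of their span, 6 fell and none rose in the chromosome 2 line. In the chromosome 3 line 2 of these fell. Among the 21 overlapped over at least 50% of their span, 9 fell and 4 rose in the chromosome 2 line, and 1 fell and 1 rose in the chromosome 3 line. Cyp313a1, the highest P450 gene per kb, lies within Pde6 on the other strand: the gene fell on chromosome 2 by -0.19 ± 0.07 (adjusted p = 0.0479) and Pde6 by -0.21 ± 0.06. That call of Cyp313a1 was lost without any of 7 single libraries, with adjusted p up to 0.145.

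P450s need electrons, heme and transcriptional control, and genes for these were read from the same fit. In the chromosome 2 line 12.8% of all genes rose and 13.3% fell. Of 5 genes for electron donors, 2 fell in the chromosome 2 line: Cpr, the reductase of microsomal P450s (-0.21 ± 0.06, adjusted p = 0.0161), and Cyt-b5, which passes a further electron to some of them (-0.33 ± 0.04, adjusted p = 2.11e-05). The adrenodoxin reductase gene dare, which serves mitochondrial P450s, had a log2 change of -0.02 ± 0.14 and was not called. Of 8 heme synthesis genes, CG1885 (-0.20 ± 0.06) and Coprox (-0.33 ± 0.09) fell and Updo rose (0.19 ± 0.05). The gene for the first enzyme of heme synthesis, Alas, had a log2 change of -0.07 ± 0.06 and was not called. None of these genes was called in the chromosome 3 line.

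Of 8 regulators of the xenobiotic response, 3 fell in the chromosome 2 line, where 13.3% of all genes fell, and none was called in the chromosome 3 line, where 2.11% of all genes were. The 3 were cnc, the Nrf2 homologue (-0.23 ± 0.06), its partner maf-S (-0.15 ± 0.05) and its inhibitor Keap1 (-0.30 ± 0.07). Hr96, a nuclear receptor that acts in the response to xenobiotics, had log2 changes of -0.03 ± 0.05 and 0.01 ± 0.05. The median of the list was -0.14 on chromosome 2 and -0.04 on chromosome 3.

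Fat body is a site of expression for many of these P450 genes, and its markers were read from the same fit. In the chromosome 2 line 13.3% of all genes fell. Of 12 fat body genes tested, 7 fell there, with a median log2 change of -0.64, and none rose. They were Rfabg (-0.66 ± 0.06), the apolipophorin precursor, Mtp (-0.77 ± 0.08), ACC (-0.52 ± 0.08), CG3523 (-0.82 ± 0.15), bmm (-0.69 ± 0.11), Yp1 (-1.70 ± 0.51) and Lip4 (-0.38 ± 0.10). Yp1 is also a female marker in the lists used here, and all flies were male, so its fall is no clear measure of fat body. The summed fat body level was 14143 to 18172 CPM in Chrom2-5R, 9413 to 10693 CPM in Chrom2-160R, 12874 to 14409 CPM in Chrom3-5R and 10909 to 11703 CPM in Chrom3-160R. In each line every 160R library was below every control. In the chromosome 3 line 1 of the 12 was called, Rfabg (-0.26 ± 0.06). Between the controls, 2 of the 12 were higher in Chrom3-5R and 3 lower, where 28 of 75 P450 genes were higher and 7 lower. Between the long-repeat groups, 5 were higher in Chrom3-160R and none lower, where 34 of 75 P450 genes were higher and 2 lower. The shares of all genes in these comparisons are given above. Fbp1 was at 0.201 to 14.3 CPM and was not called in either line. The part of fat body content in the P450 result was not tested.

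Markers of other tissues were also read in the chromosome 2 line, where 12.8% of all genes rose and 13.3% fell. Of 16 muscle genes, 7 rose and none fell. Their summed level was 6092 to 7101 CPM in Chrom2-5R. In Chrom2-160R it was 12311 CPM in replicate 1, the library with male reproductive tract RNA, and 7844, 7907 and 7734 CPM in the others. Of 4 tested midgut enzymes, Amy-p (-1.17 ± 0.31) and Amy-d (-1.35 ± 0.15) fell and Mal-A7 rose (1.77 ± 0.59). Of 8 tested Malpighian tubule genes, Oatp58Dc rose (0.25 ± 0.05) and Irk3 fell (-0.21 ± 0.07). Of 11 tested cuticle genes, 2 rose and 1 fell. Calls of the Malpighian tubule and cuticle lists lay near the share of all genes. The part of these tissues in the P450 result was not tested. Another fit left out Chrom2-160R replicate 1 and Chrom3-160R replicate 4, the libraries with the highest cuticle sums. It called 24.1% of all genes in the chromosome 2 line. Of the P450 genes it called 40 there, 36 of them lower and 4 higher. Of the 40 called with all libraries, 37 were among them, and Cyp313a1, Cyp316a1 and Cyp4ae1 were not.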

How the data were processed

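RNA was measured by sequencing in 16 libraries of male fly heads, 4 in each of 4 groups named in the labels. The deposited files hold raw whole-number counts per gene, not normalised, for 17558 genes each. The labels' protocols give Trizol extraction and stranded libraries with no poly(A) step. Trimmomatic, STAR, bedtools and DESeq, and the builds BDGP6 and mm10, are named in the submitters' processing notes without roles or versions. Whether counting used strand, and how reads matching several genes were handled, is not given in the sources used here. Coordinates are those of the files, where 76 of the 78 genes had the same span as in the annotation of release 115.

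Counts of all genes were fitted as 4 group means with edgeR 4.0.16 in R 4.3.3 (filterByExpr, TMM, robust quasi-likelihood test), and p-values were Benjamini-Hochberg adjusted over the 13525 genes tested, with 0.05 as the threshold. Values after ± are SE for log2 changes and SD for levels. Library totals ran from 11452337 to 53615117 counts, so that 1 CPM is 11.5 to 53.6 counts. The fit was tested on simulated data. Alternatives were DESeq2 1.42.0, limma 3.58.1 (voom), DESeq2 size factors, other low-count filters, a replicate block, the 8 libraries compared alone, and each library left out. The P450 genes, role groups, pathway and marker lists were chosen with earlier results of these data known. Library values are given for 29 genes: the called genes of each repeat comparison with at least 1.5-fold change (up to the 10 largest), the 6 largest called differences between lines, called genes at least 2-fold apart between the controls, and every tested gene with a listed role.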

Additional observations from a re-analysis of the deposited data

Results flagged for a closer look

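Among 120 group values, of 29 genes and of the summed P450 level, 12 had a single library far from the other 3, where chance alone gives about 1 in 20. In Chrom2-160R, replicate 1 was high for Cyp309a2 at 20.8 CPM (others 9.5 to 11.4), for Cyp6g1 at 195 CPM (113 to 120.4), for Cyp12a4 at 90.1 CPM (57.5 to 61.4) and for Cyp4g1 at 64.3 CPM (3.47 to 11.5). This is the library with 133 CPM of male reproductive tract genes, and its part in these values was not tested. Replicate 3 of that group was low for Cyp316a1, at 0.371 CPM (0.859 to 0.914). In Chrom2-5R, replicate 4 was low for Cyp6w1 at 127 CPM (219 to 234), for Cyp4d21 at 179 CPM (325 to 336) and for Cyp301a1 at 2.13 CPM (3.11 to 3.22), and high for Cyp6g1 at 301 CPM (219 to 231). In Chrom3-5R, replicate 2 was high for Cyp6d2 at 6.28 CPM (5.66 to 5.68) and low for Cyp6a14 at 12.6 CPM (all others 13.1). In Chrom3-160R, replicate 4 was low for Cyp6a17 at 61.4 CPM (72.8 to 75).

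The repeat change differed between the chromosome 3 and the chromosome 2 line, by the edgeR test of the difference, for 18 genes. The log2 change was higher on chromosome 3 for Cyp304a1 (by 2.06), Cyp6g2 (1.17), Cyp309a2 (1.1), Cyp6g1 (1.04), Cyp4p2 (0.922), Cyp12a5 (0.841), Cyp4d20 (0.782), Cyp6d2 (0.637), Cyp4p1 (0.604), Cyp9h1 (0.551), Cyp6t1 (0.545), Cyp6a22 (0.506), Cyp9b2 (0.43) and Cyp4e2 (0.394). It was lower on chromosome 3 for Cyp9c1 (-1.92), Cyp6a2 (-0.477), Cyp4p3 (-0.354) and Cyp9f2 (-0.345). Those of Cyp6d2 and Cyp9h1 (adjusted p = 0.0442 and 0.0299) were each lost under 11 of 23 alternatives, among them limma-voom, the replicate block and 9 single libraries left out, and that of Cyp6a2 without any of 3 single libraries.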

How the results depend on the processing

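Over all alternatives run, 26 of the 40 chromosome 2 calls, 6 of the 8 chromosome 3 calls, 10 of the 18 differences between lines, 26 of the 35 calls between controls and 28 of the 36 between long-repeat groups were kept in every one, and none turned direction. The chromosome 3 count of 8 rose to 16 with DESeq2 and 13 with limma-voom. Those fits called 4.44% and 3.21% of all genes in that comparison, where the main fit called 2.11%. The cause was not tested. Leaving out single libraries gave 31 to 41 calls on chromosome 2, 6 to 13 on chromosome 3 and 12 to 24 for the difference. It gave 27 to 39 between controls and 31 to 44 between long-repeat groups. These ranges take in the fit without both Chrom2-160R replicate 1 and Chrom3-160R replicate 4. Of all genes, the same fits called 19% to 26.9%, 1.24% to 3.24%, 4.17% to 12.1%, 23.5% to 33.2% and 16.4% to 23.6%, in that order. Replacing TMM by DESeq2 size factors moved the median of all genes by at most 0.0080 in size. The summed P450 level of Chrom2-5R was 3580 CPM on the plain library total against 3730.3 with TMM. Same-numbered libraries of different groups showed no pairing (correlation of deviations -0.25 to 0.24, over 0.1 in 3 of 24 pairs). With the replicate block, 35, 8, 13, 31 and 34 genes were called in the comparisons in the order above. Of all genes, 22.6%, 1.46%, 4.78%, 27.5% and 19.7% were called with it. In the chromosome 2 groups the smallest library has 11.5 counts per CPM, which limits genes under 1 CPM such as Cyp316a1, Cyp6a16 and Cyp6a18.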

Other observations

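Some P450 genes with no repeat call, or a small one, differed between the lines at both repeat lengths. Cyp28a5, a member of the CYP28 family to which Cyp28d1 and Cyp28d2 belong, had means of 56.6 ± 1.96 CPM in Chrom2-5R, 54.7 ± 6.82 CPM in Chrom2-160R, 113 ± 9.77 CPM in Chrom3-5R and 99.6 ± 5.67 CPM in Chrom3-160R (SD, n = 4). All chromosome 3 libraries were above all chromosome 2 libraries, with log2 differences of 0.99 ± 0.08 between controls and 0.87 ± 0.08 between long-repeat groups (edgeR adjusted p = 1.44e-07 and 1.39e-06). Cyp4ac1 and Cyp4ac2, which lie within the gene tkv, were also higher in the chromosome 3 groups at both lengths, by 0.60 ± 0.07 and 0.64 ± 0.07 for Cyp4ac1 and by 0.89 ± 0.10 and 0.97 ± 0.10 for Cyp4ac2. Between the controls tkv itself was higher in Chrom3-5R, by 0.49 ± 0.04. These differences cannot be told apart from stock background and depth.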
